A study of Mus musculus with 19 samples.

Results

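The bitter taste receptor genes of the mouse, the Tas2r family, were followed through sorted nasal epithelial cells. All 35 rows whose symbol begins with Tas2r were taken from the deposited normalized table of 26221 genes, whatever their level, and each was found again with identical reads in the table of raw counts. The cells came from naive mice of the transgenic line Tg(RP23-268L19-EGFP)2Mik on a B6 background, which carry eGFP under the regulatory region of Chat on a bacterial artificial chromosome, so that the cells of all groups share the transgene. Cells were freed from the nose by dispase followed by papain, and dead cells were excluded with propidium iodide. FSClow stands for CD45-, EpCAM+ and eGFP+ cells of low forward and side scatter (n = 9 libraries), FSChi for the eGFP+ cells of high scatter (n = 5), and EpCAM for CD45-, EpCAM+ cells without eGFP (n = 5). The labels give no age, and they do not say whether libraries came from separate or pooled animals. The p-values here therefore set group differences only against the variation between these libraries, which may be technical. The reporter marks Chat regulatory sequence, and no receptor gene was used for sorting.

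Bitter taste receptors are G protein-coupled receptors of the cell surface, and different members recognise different sets of bitter compounds. In taste cells they act through the G protein gustducin, whose alpha subunit is Gnat3, and the released beta and gamma subunits activate the phospholipase Plcb2. Its product inositol trisphosphate opens the calcium channel Itpr3, and calcium then opens the cation channel Trpm5, a pathway also used by the solitary chemosensory cells and tuft cells of the airways, which are known for sensing bacterial products and irritants.

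The 35 genes lie at 5 places on chromosome 6, with 1 more gene on chromosome 2 and 1 on chromosome 15 (RefSeq coordinates, GRCm38.p6, the patch level of mm10). Each is a single exon in the GENCODE annotation, with coding lengths from 882 to 1044 nt. Locus A holds Tas2r118 alone (chr6:23969161-23970060, minus strand). Locus B spans chr6:40491238-40613310 with Tas2r137, Tas2r108 and Tas2r138, and locus C spans chr6:42140936-42435461 with Tas2r139, Tas2r144, Tas2r143, Tas2r135 and Tas2r126. Locus D (chr6:131629892-131690063) holds 6 genes and locus E (chr6:132656957-133055793) the other 18 of chromosome 6. Tas2r134 is at chr2:51627511-51628407 and Tas2r119 at chr15:32177289-32178294.

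The sequence in front of the genes was read because locus B and loci D and E differed in their shares of FSClow and FSChi reads, as given further on. Loci A to C, grouped below, did not share a pattern of reads. Locus A took 0.39% of FSClow and 5.38% of FSChi receptor reads, and locus C 2.73% and 3.38%. RefSeq windows from 250 bases before to 50 bases after the annotated start were at hand for 31 of the 35 genes, and 29 of them had ATG at that start. They were searched on both strands for ATGCAAAT (reverse complement ATTTGCAT), the octamer bound by POU-domain factors, the class to which the tuft cell regulator Pou2f3 belongs. It occurred in 7 of 31 receptor windows (22.6%) and in 570 of 32851 windows of all genes (1.74%). How often the windows of all genes have ATG at the start is not given here, so they may be placed unlike the receptor windows. The windows holding it were 6 of 9 at loci A to C, 1 of 20 at loci D and E and 0 of 2 on chromosomes 2 and 15. The matches are printed 5′ to 3′ on the gene's strand with up to 20 bases on either side and the octamer in capitals, so that the 7 can be compared.
Tas2r118, chr6:23970157-23970204: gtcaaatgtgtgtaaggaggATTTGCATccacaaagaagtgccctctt
Tas2r137, chr6:40491026-40491073: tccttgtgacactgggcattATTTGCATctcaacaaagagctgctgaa
Tas2r108, chr6:40493426-40493473: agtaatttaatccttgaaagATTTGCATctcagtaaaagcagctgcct
Tas2r144, chr6:42215151-42215198: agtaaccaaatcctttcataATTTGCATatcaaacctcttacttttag
Tas2r135, chr6:42405366-42405413: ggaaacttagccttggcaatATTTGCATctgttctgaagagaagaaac
Tas2r126, chr6:42434321-42434368: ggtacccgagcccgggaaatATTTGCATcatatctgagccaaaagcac
Tas2r107, chr6:131660358-131660399: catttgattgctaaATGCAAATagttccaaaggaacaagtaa
In the 6 genes of loci A to C the octamer read ATTTGCAT on the gene's strand, and its nearest base lay 117 to 187 bases before the annotated start. In Tas2r107 it read ATGCAAAT, 229 bases before a RefSeq start that is not an ATG. Of the 5 genes with 10 or more reads over the FSClow libraries, 4 held the octamer (Tas2r108, Tas2r126, Tas2r137 and Tas2r118) and Tas2r138 did not. Among the 26 other windows it occurred in 3. All 13 FSClow reads of Tas2r118 came from FSClow 5. At 3 or more reads over FSClow, the cut used for detection below, 11 receptors counted. Of those this lower cut added, Tas2r135 held the octamer, Tas2r143, Tas2r105 and Tas2r129 did not, and Tas2r136 and Tas2r117 had no window. The letters TATAAA (reverse complement TTTATA), searched in the same way, occurred in 10 of 31 receptor windows (32.3%) and in 13.6% of all windows, at no place overlapping the octamer. Such matches describe letters in a window, and binding was not measured.

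Total counts ran from 1348428 reads in FSChi 2 to 7477695 in FSChi 3. The labelled cell types were checked against marker lists: the summed level of 8 tuft cell markers was 7048 to 10558 CPM, the read count scaled to library size, in FSClow, 6181 to 10330 CPM in FSChi and 11.04 to 21.9 CPM in EpCAM. The 8 include Chat, whose regulatory region drives the eGFP used for sorting, so this sum is not independent of the sort. They also include Trpm5, which returns among the transduction genes below. The sum without Chat is not given here. Markers of other nasal cells were also read in FSChi, where the 6 olfactory neuron markers, all with reads, summed to between 238 and 3736 CPM (64.5 to 272 in FSClow, 2875 to 5265 in EpCAM) and the 4 secretory markers, all with reads, to between 397 and 11857 CPM (14.9 to 178 in FSClow, 4827 to 17688 in EpCAM). The 4 basal markers, all with reads, summed to between 23.9 and 1708 CPM in FSChi, 1.08 to 109 CPM in FSClow and 1203 to 3632 CPM in EpCAM. The part of these cells in the receptor values was not tested. Of the 19 columns of the count table, 5 (FSChi 3, 4 and 5 and EpCAM 1 and 2) were closest to the single-library file of another sample of their own group, and the file of FSChi 3 held only 6807 expected counts. Library numbers below are those of the count table, and values without these 5 columns are given beside results that moved by over 1.5 times. Column FSChi 3 was closest to the file of FSChi 4 (r = 0.965) and column FSChi 4 to that of FSChi 5 (r = 0.963). Column FSChi 5 had no file as close, with 0.921 as its highest r, where every other column reached 0.959 to 0.966. Results from the single-library files may therefore lack that library.

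Receptor genes were read broadly in FSChi, narrowly in FSClow and hardly at all in EpCAM. FSChi libraries held reads of 33, 18, 22, 23 and 35 receptor genes (FSChi 1 to 5), FSClow libraries of 3 to 11 with a median of 5, and EpCAM libraries of 3, 1, 2, 2 and 3. The groups did not overlap between FSChi and the other two. With every library thinned to the 1348428 reads of the shallowest, the expected numbers were 31.9, 18.0, 17.7, 19.3 and 34.2 in FSChi, 2.998 to 8.32 in FSClow and 0.326 to 2.13 in EpCAM, which kept the order of the groups. Over a group's libraries, 3 or more reads were found for 35 of 35 receptors in FSChi, for 11 in FSClow and for 4 in EpCAM. The share of all genes at 3 or more reads is not given here. Of the 27179 genes in the count table, single FSChi libraries held reads of 13062 to 17829. This number was 14523 to 16065 in FSClow libraries and 18053 to 18469 in EpCAM libraries. No receptor was without a read in all 19 libraries.

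**Figure D1:**
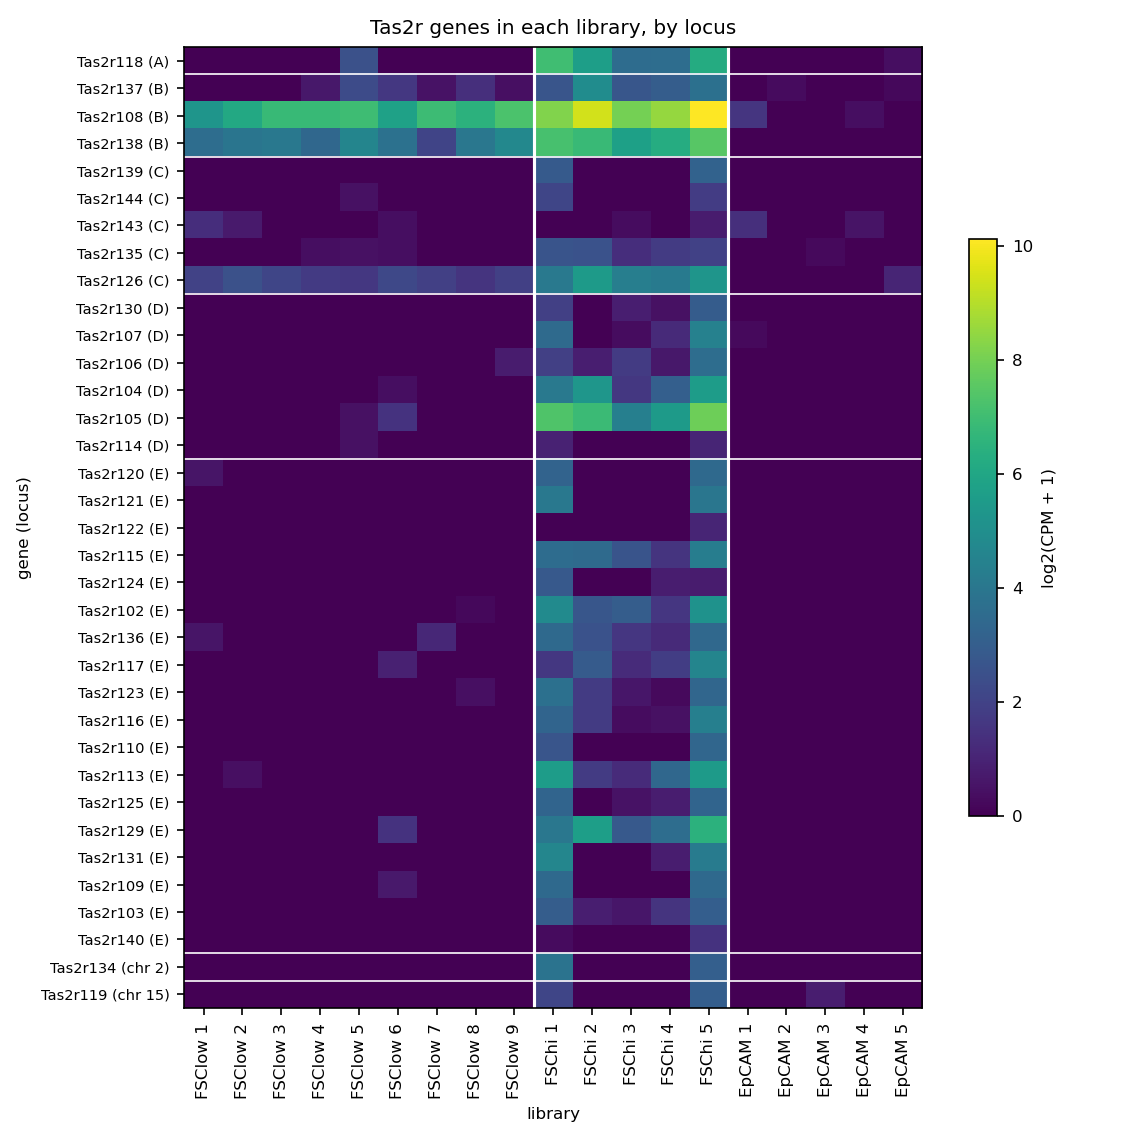
Level of each of the 35 Tas2r genes (rows, by locus) in each of the 19 libraries (columns) as log2(CPM + 1). Reads of Tas2r108, Tas2r138 and Tas2r126 run through all 14 eGFP+ libraries, the other rows are mostly limited to FSChi columns, and 25 rows are brighter in both FSChi 1 and FSChi 5 than in FSChi 2, 3 and 4.

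The summed receptor level followed the same order. It was 1033, 1184, 395, 567 and 2099 CPM in FSChi 1 to 5, between 55.0 and 183 CPM with a median of 124 in FSClow, and 3.73, 0.238, 0.936, 0.779 and 1.51 CPM in EpCAM. Every FSChi library lay above every FSClow library, and every FSClow library above every EpCAM library. The group means were 1055.5 ± 667 CPM (SD, n = 5), 117 ± 40.1 CPM (SD, n = 9) and 1.44 ± 1.36 CPM (SD, n = 5). In such sorted pools, fewer receptor-bearing cells and less receptor RNA per cell cannot be told apart.

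**Figure D2:**
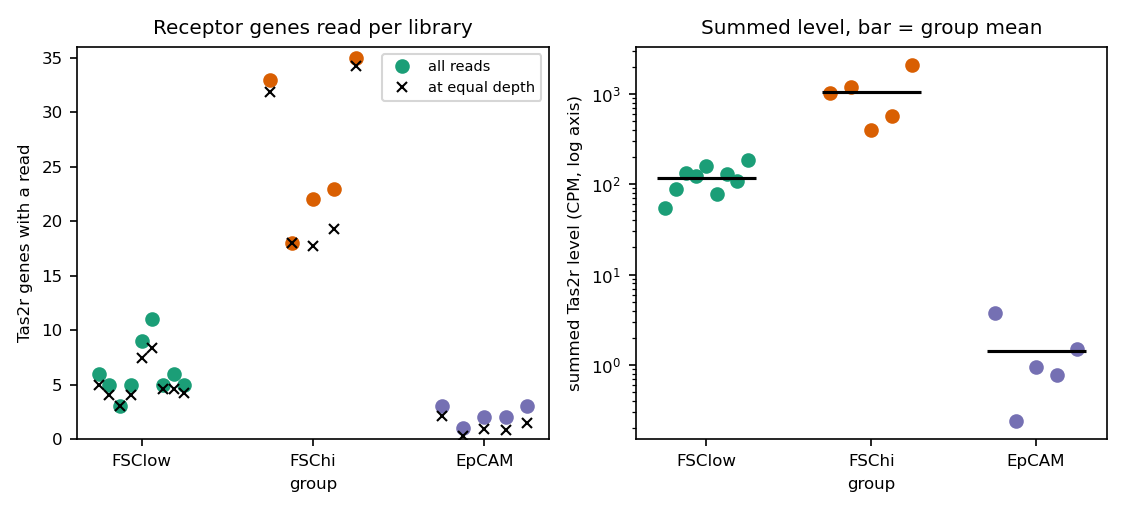
Left, number of Tas2r genes with at least 1 read in each library (filled points) and the number expected at equal depth (crosses); right, summed Tas2r level per library in CPM on a log axis, with bars at group means. FSChi points sit at 18 to 35 genes and 395 to 2099 CPM, FSClow points at 3 to 11 genes and 55.0 to 183 CPM, and EpCAM points at 1 to 3 genes and under 4 CPM.

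The 3 comparisons were tested over all genes. In FSClow against EpCAM, which asks what low-scatter cholinergic cells express beyond other epithelium, 4 of the 7 receptors that passed the filter on low counts were higher and 0 lower, where 22.0% of all genes tested were higher and 23.1% lower. In FSChi against EpCAM, 7 of 7 were higher and 0 lower (13.5% of all genes higher, 12.2% lower), and in FSChi against FSClow, which asks how the scatter gates differ, 7 of 7 were higher and 0 lower (15.5% and 9.3%). The first 2 comparisons share the EpCAM libraries. The filter asks for enough reads in 5 libraries, and 4 of the 7 (Tas2r105, Tas2r118, Tas2r129 and Tas2r137) met it only through FSChi, the group where they were high. For these 4 a difference from FSChi was largely set by the filter, so the counts are no support for the family, their adjusted p-values below are given as a description, and 1 of the 4 FSClow calls, that of Tas2r137, is of such a gene. Tas2r108, Tas2r126 and Tas2r138 met it without FSChi and were higher in all 3 comparisons. They met it only through eGFP+ libraries, since no EpCAM library had enough reads. The filter thus also favoured a difference from EpCAM for these genes, and their adjusted p-values against EpCAM are likewise a description. Without the filter all 35 entered, and 30 were higher in FSChi than in FSClow (10.7% of all genes), 28 higher in FSChi than in EpCAM (6.7%) and 4 higher in FSClow than in EpCAM (10.7%). In this fit 0 receptors were lower, where 3.91%, 7.72% and 21.3% of all genes were. Apart from any model, every FSChi library exceeded every FSClow library for 16 of 35 receptors (2.45% of all genes with a read), and every EpCAM library for 18 (5.97%). Every FSClow library exceeded every EpCAM library for 3 receptors (5.99%), and no receptor was higher in every FSClow library than in every FSChi library (1.43%).

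The receptors with reads in all 14 eGFP+ libraries were Tas2r108, Tas2r138 and Tas2r126, from loci B and C. Over the libraries of a gate, 11 receptors had 3 or more reads in both, among them Tas2r118 at locus A, Tas2r105 at locus D and Tas2r136, Tas2r117 and Tas2r129 at locus E. Tas2r108 (Entrez 57253, chr6:40493592-40494485), the mouse counterpart of human TAS2R4, was the leading receptor in all 14 eGFP+ libraries. Its level was 294, 697, 254, 366 and 1114 CPM in FSChi 1 to 5, from 38.2 to 154 CPM with a median of 111 in FSClow, and 1.96, 0, 0, 0.312 and 0 CPM in EpCAM. The 3 groups did not overlap, and FSChi 2 and FSChi 5 stood highest. The log2 fold change was 7.69 ± 0.73 (SE) in FSClow against EpCAM (edgeR adjusted p = 1.9e-08) and 2.49 ± 0.43 in FSChi against FSClow (edgeR adjusted p = 0.00017). EpCAM 1 held 10 of the 12 EpCAM reads, and without it the first of these values was 9.60. FSChi against EpCAM gave 10.18 ± 0.79 (SE; adjusted p = 3.0e-09, edgeR), or 12.11 without EpCAM 1. Without the 5 columns closest to another file, which include EpCAM 1, the values against EpCAM were 9.35 for FSClow and 11.72 for FSChi.

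Tas2r138 (Entrez 387513, chr6:40612315-40613310, minus strand), the counterpart of human TAS2R38, the receptor for phenylthiocarbamide, was the second receptor in every FSClow library. It stood at 143, 115, 53.3, 76.0 and 178 CPM in FSChi 1 to 5 and from 3.22 to 25.7 CPM with a median of 14.3 in FSClow, and no EpCAM library held a read. Both eGFP+ gates were clear of EpCAM and of each other. Over the group, 413 FSClow reads against 0 in EpCAM made Tas2r138 at least 136-fold higher in FSClow, and 2060 FSChi reads made it at least 901-fold higher in FSChi, both against a floor of 3 reads over the EpCAM libraries (edgeR adjusted p = 1.6e-08 and 5.8e-10). FSChi exceeded FSClow by 2.95 ± 0.34 on the log2 scale (SE; adjusted p = 2.7e-06, edgeR). For every 100 reads of Tas2r108 there were 16.9 ± 8.04 reads of Tas2r138 in FSClow (SD, n = 9) and 24.6 ± 13.7 in FSChi (SD, n = 5), a difference within the spread of the libraries.

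Tas2r126 (Entrez 387353, chr6:42434535-42435461) was low but present throughout the eGFP+ libraries. Its levels were 16.2, 45.0, 18.9, 17.2 and 37.9 CPM in FSChi 1 to 5 and from 1.88 to 4.78 CPM with a median of 2.82 in FSClow. In EpCAM all 7 reads came from EpCAM 5, at 1.05 CPM, and the groups did not overlap. It was higher in FSClow than in EpCAM by 3.45 ± 0.66 on the log2 scale (SE; adjusted p = 0.00013, edgeR), or by 6.54 without EpCAM 5, and higher in FSChi than in FSClow by 3.17 ± 0.46 (SE; adjusted p = 1.6e-05, edgeR). FSChi against EpCAM gave 6.62 ± 0.70 (SE; adjusted p = 1.3e-07, edgeR), or 9.70 without EpCAM 5. Both values without EpCAM 5 are fitted against 0 reads and depend on the prior count. Without the 5 columns closest to another file, FSClow against EpCAM gave 2.83.

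Tas2r137 (Entrez 574417, chr6:40491238-40492239), the neighbour of Tas2r108, was read in all FSChi and in 6 of 9 FSClow libraries. It stood at 5.41, 28.9, 5.51, 6.91 and 12.4 CPM in FSChi 1 to 5, from 0 to 3.94 CPM with a median of 0.403 in FSClow, and at 0.238 and 0.151 CPM in EpCAM 2 and 5 with no read in the other 3. FSChi lay above both other groups, whereas 3 FSClow libraries had no read and overlapped EpCAM. The rise in FSChi over FSClow was 3.42 ± 0.69 on the log2 scale (SE; adjusted p = 0.00073, edgeR), or 2.81 without FSChi 2. FSClow against EpCAM rested on 31 reads against 2, a ratio of 15.3 (95% counting interval 3.89 to 131.9, edgeR adjusted p = 0.011). That call ended with the replicate block (edgeR adjusted p = 0.057) and when the 5 columns closest to another file were left out (edgeR adjusted p = 0.058). It also ended with limma on log2(TPM + 0.1) (2.28, adjusted p = 0.25), on log2(TPM + 1) (0.81, adjusted p = 0.44) and on the log2(normalized value + 1) scale (1.14, adjusted p = 0.17), and with FSClow and EpCAM alone the gene did not enter the test. Its FSChi against EpCAM value was 6.79, or 7.55 without those columns.

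**Figure D3:**
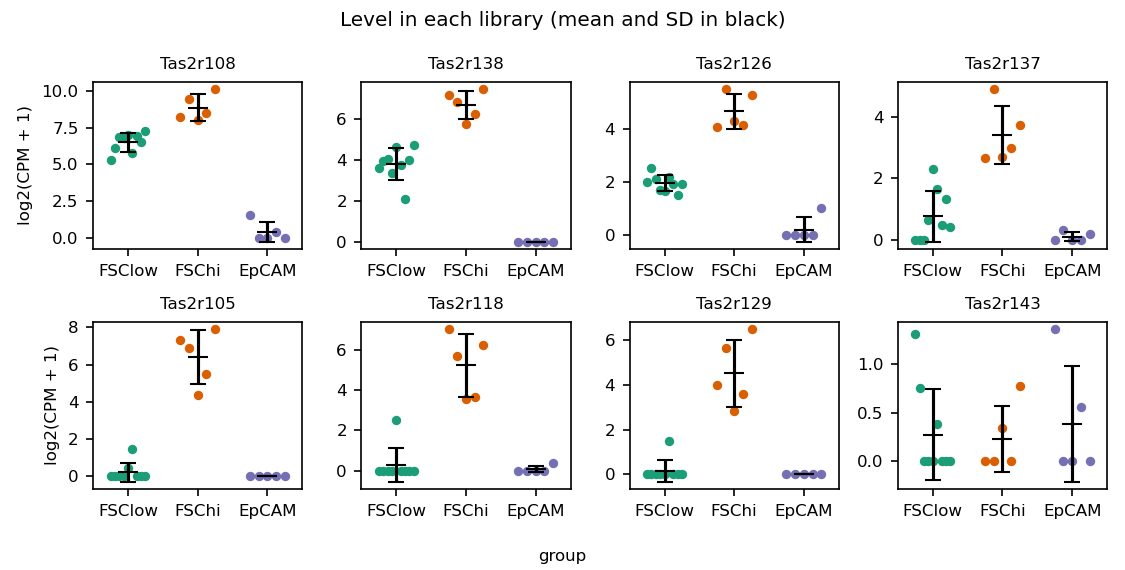
Level of 8 receptors in each library as log2(CPM + 1), by group, with the mean and SD in black; each panel has its own vertical scale. Tas2r108, Tas2r138 and Tas2r126 separate all 3 groups, Tas2r105, Tas2r118 and Tas2r129 are high in FSChi and at 0 in most FSClow libraries, and Tas2r143 overlaps in all groups.

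A second set was abundant in FSChi and all but missing from FSClow. Tas2r105 (Entrez 57252, chr6:131686561-131687463, minus strand), the cycloheximide receptor, was read at 162, 118, 19.8, 45.0 and 239 CPM in FSChi 1 to 5. In FSClow only FSClow 5 (1 read) and FSClow 6 (6 reads, 1.82 CPM) held any, and EpCAM held none. FSChi was clear of both other groups, which overlapped at 0, and the log2 fold change of FSChi against FSClow was 8.69 ± 0.74 (SE; adjusted p = 1.9e-07, edgeR), or 10.67 without FSClow 6. The 1896 FSChi reads made it at least 829-fold higher than EpCAM (edgeR adjusted p = 4.5e-07). In FSClow against EpCAM, 7 reads against 0 gave no call (edgeR adjusted p = 0.17). There were 55.0, 16.9, 7.77, 12.3 and 21.5 reads of Tas2r105 per 100 of Tas2r108 in FSChi 1 to 5, and at most 3.35 in FSClow.

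Tas2r118 (Entrez 387347, locus A), the counterpart of human TAS2R16, a receptor for beta-glucosides, gave 128, 49.8, 10.9, 11.4 and 73.0 CPM in FSChi 1 to 5. All 13 FSClow reads came from FSClow 5, at 4.66 CPM, and both EpCAM reads from EpCAM 5. FSChi was clear of the other groups and differed from FSClow by 6.73 ± 0.86 on the log2 scale (SE; adjusted p = 6.1e-06, edgeR), or by 6.12 without FSChi 1. Without FSClow 5 no FSClow read remained, and the fitted value of 10.84 then depends on the prior count. Without the 5 columns closest to another file it was 7.48. Against the 2 EpCAM reads the FSChi ratio was 626 (95% counting interval 173 to 5179, edgeR adjusted p = 1.3e-05). FSClow against EpCAM, at 13 reads against 2, did not pass (edgeR adjusted p = 0.25), and its fitted log2 value turned from 2.33 to -1.78 without FSClow 5.

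Tas2r129 (Entrez 387354, chr6:132951102-132952064), at locus E, gave 15.3, 49.8, 6.18, 11.2 and 90.02 CPM in FSChi 1 to 5. All 6 FSClow reads came from FSClow 6, at 1.82 CPM, and EpCAM held none, so that FSChi overlapped neither group. It was higher in FSChi than in FSClow by 7.12 ± 0.86 on the log2 scale (SE; adjusted p = 5.6e-06, edgeR), or by 6.38 without FSChi 5, and at least 213-fold higher than in EpCAM (edgeR adjusted p = 1.1e-05). Without FSClow 6 no FSClow read remained, and the fitted value of 10.12 then depends on the prior count. FSClow against EpCAM did not pass (edgeR adjusted p = 0.16). Unlike Tas2r118, which was highest in FSChi 1, Tas2r129 was highest in FSChi 5 and FSChi 2.

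The other receptors of locus D, the neighbours of Tas2r105, were read mainly in FSChi. Tas2r104 had 69, 48, 16, 40 and 132 reads in FSChi 1 to 5 (16.2, 38.6, 2.15, 7.47 and 46.8 CPM), 1 read in FSClow and 0 in EpCAM. Tas2r106 had 12, 1, 18, 3 and 32 FSChi reads and 2 FSClow reads, both in FSClow 9. Tas2r104 was thus clear of FSClow in all 5 libraries, whereas FSChi 4 and FSClow 9 overlapped for Tas2r106. Tas2r107 had 44, 0, 2, 7 and 58 reads in FSChi 1 to 5, 0 in FSClow and 1 in EpCAM, which puts FSChi at least 49.2-fold above FSClow. Tas2r130 had 12, 0, 6, 2 and 19 FSChi reads and 0 elsewhere, at least 17.3-fold above FSClow. Both were missing from FSChi 2, the shallowest library, in which 3 reads are worth 2.41 CPM. Tas2r114 had 4 and 3 reads in FSChi 1 and 5, 1 in FSClow and 8 in all.

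Locus E, with 18 genes, ranged over FSChi from 3 reads of Tas2r122 to the 487 of Tas2r129. Tas2r113 had 203, 3, 10, 51 and 127 reads in FSChi 1 to 5 (47.7, 2.41, 1.34, 9.52 and 45.0 CPM) against 1 in FSClow. Tas2r102 had 117, 7, 51, 11 and 99 (27.5, 5.62, 6.85, 2.05 and 35.1 CPM) against 1, and Tas2r115 had 47, 13, 39, 10 and 52 (11.1, 10.4, 5.24, 1.87 and 18.4 CPM) against 0. These 3 were read in all 5 FSChi libraries, each above every FSClow library. The FSChi to FSClow ratio was 524 for Tas2r113 (95% counting interval 93.5 to 20744) and 379 for Tas2r102 (67.5 to 15019), and Tas2r115 was at least 71.4-fold higher. In all, 6 further genes of the locus had reads in all 5 FSChi libraries: Tas2r136 (98 FSChi reads, 4 in FSClow), Tas2r117 (106 and 3), Tas2r123 (87 and 2), Tas2r116 (98 and 0), Tas2r103 (64 and 0) and the Tas2r129 already described. Tas2r123 is the exception among them in its groups, since FSChi 4 with 0.187 CPM lay below FSClow 8 with 0.343 CPM.

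The remaining genes of locus E were read in some FSChi libraries only. Tas2r131 had 101, 0, 0, 4 and 49 reads in FSChi 1 to 5, Tas2r125 had 36, 0, 3, 4 and 24, and Tas2r124 had 26, 0, 0, 4 and 2. None of the 3 had a read in FSClow or EpCAM, which puts FSChi at least 68.3-fold, 29.7-fold and 14.2-fold above FSClow. Tas2r121 had 67 and 41 reads in FSChi 1 and 5, Tas2r120 had 35 and 28, Tas2r109 had 43 and 28, and Tas2r110 had 23 and 26, and all 4 had no read in FSChi 2, 3 and 4. Tas2r120 had 1 FSClow read and Tas2r109 had 2. Tas2r140 with 6 reads in all and Tas2r122 with 3 were the least read genes of the family.

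At locus C the genes next to Tas2r126 behaved unlike it. Tas2r135, the counterpart of human TAS2R60, had 22, 6, 11, 13 and 8 reads in FSChi 1 to 5 (5.17, 4.82, 1.48, 2.43 and 2.84 CPM), 3 in FSClow and 1 in EpCAM, and every FSChi library was above every other. Tas2r139, the counterpart of TAS2R39, had 27 and 23 reads in FSChi 1 and 5 and 0 elsewhere. Tas2r144, the counterpart of TAS2R40, had 14 and 7 in the same libraries and 1 in FSClow. Tas2r143 was the only receptor with fewer reads in FSChi than in EpCAM, with 4 FSChi reads, 6 FSClow reads and 11 EpCAM reads, 8 of these in EpCAM 1 and 3 in EpCAM 4. Its groups overlapped, and the FSChi to EpCAM ratio of 0.477 had a 95% counting interval of 0.111 to 1.61, from few reads of 2 libraries a group. The test without the filter gave no call against EpCAM (edgeR adjusted p = 0.69).

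The receptors outside chromosome 6 were read in the same pair of libraries. Tas2r134 had 57 and 21 reads in FSChi 1 and 5 (13.4 and 7.44 CPM) and 0 in the other 17 libraries. Tas2r119, the counterpart of human TAS2R1, had 14 and 20 reads there and 4 in EpCAM 3. At 3 reads over the group, FSChi was at least 34.6-fold above FSClow for Tas2r134 and at least 15.1-fold for Tas2r119.

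FSChi libraries 1 and 5 stood apart from FSChi 2, 3 and 4 in how much of the family they held. For 25 of 35 receptors both had a higher CPM than each of the other 3, where 9.18% of all genes with a read did. For 11 receptors (Tas2r109, Tas2r110, Tas2r114, Tas2r119, Tas2r120, Tas2r121, Tas2r122, Tas2r134, Tas2r139, Tas2r140 and Tas2r144) FSChi 2, 3 and 4 held no read at all, and 10 of these had reads in both FSChi 1 and 5. The share of all genes with this pattern is not given here. Pooled, Tas2r131 was 74.4 times and Tas2r116 25.8 times higher in the pair, Tas2r105 5.05 times, Tas2r108 1.85 times, Tas2r126 1.21 times and Tas2r137 least of these. The labels do not set these libraries apart, and this grouping was made after their values were seen. FSChi 5 is also the column that no single-library file matched closely. Without both, 23 of 35 receptors had 3 or more FSChi reads, and the 7 tested receptors were called higher than in FSClow and than in EpCAM. In the main fit 4 of these 7 had passed the filter only through FSChi, so for them such calls were largely set by the filter. For Tas2r108, Tas2r126 and Tas2r138 the filter also favoured the calls against EpCAM. In FSChi 1 to 5, olfactory neuron markers summed to 3736, 238, 1414, 3039 and 1870 CPM, secretory markers to 7715, 405, 397, 8351 and 11857 CPM, basal markers to 1708, 69.9, 23.9, 670 and 660 CPM, and ciliated markers to 88.6, 35.4, 36.3, 57.1 and 33.7 CPM. FSChi 1 was thus highest for olfactory neuron, basal and ciliated markers and FSChi 5 for secretory markers. Other lists were highest in other libraries. Sustentacular markers summed to 217, 198, 144, 680 and 425 CPM, highest in FSChi 4. Ionocyte or microvillar markers summed to 5.41, 2.41, 31.0, 52.6 and 2.13 CPM, also highest in FSChi 4. Leukocyte markers were highest in FSChi 3, at 18.1 CPM. The part of all these cells in the receptor values of these libraries was not tested.

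Within FSClow, receptors typical of FSChi were limited to few libraries. FSClow 6 held 6 reads each of Tas2r105 and Tas2r129, 3 of Tas2r117 and 2 of Tas2r109, and FSClow 5 held the 13 reads of Tas2r118. Without FSClow 6, the receptors with 3 or more FSClow reads fell from 11 to 7. Reads other than those of Tas2r108, Tas2r138, Tas2r126 and Tas2r137 made up 7.69% of receptor reads in FSClow 6 and 3.81% in FSClow 5, with a mean of 2.13 ± 2.64% (SD, n = 9) over FSClow. In FSChi 1 to 5 this share was 55.6, 25.1, 15.9, 17.9 and 36.1%, each above every FSClow library. The share is taken of the reads within the family.

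**Figure D4:**
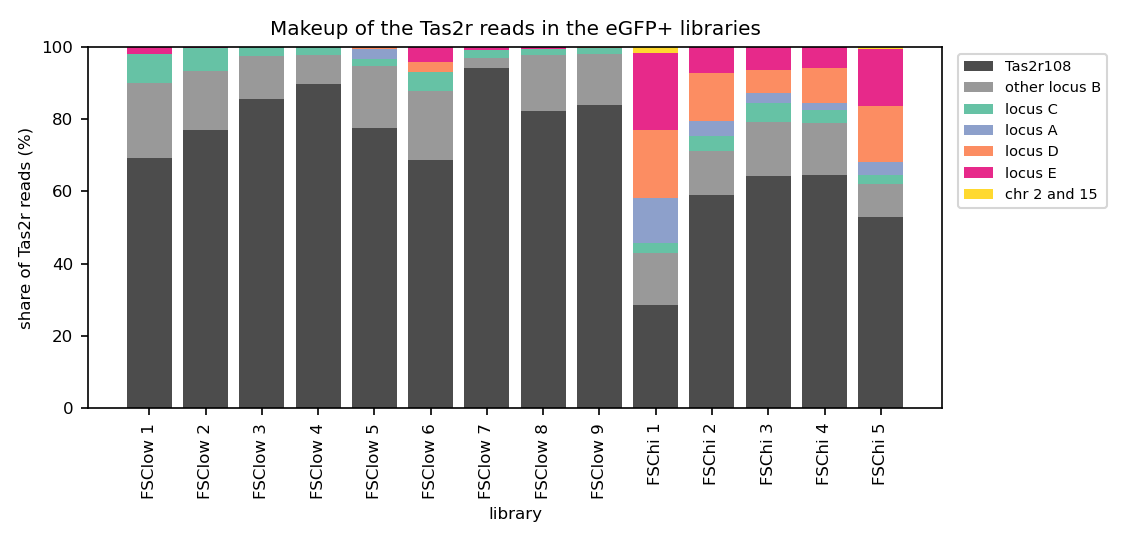
Share of each eGFP+ library's Tas2r reads (%) that fell on Tas2r108, on the other genes of locus B and on each other locus; bars sum to 100%. Loci D and E together take 12.7 to 40.1% in FSChi and 0 to 6.92% in FSClow, and Tas2r108 takes 28.4% in FSChi 1 and 53.0 to 64.4% in the other FSChi libraries.

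By locus, the 3 genes of locus B gave 95.9% of the FSClow receptor reads and 63.8% of the FSChi reads. Per library, locus B took 94.9 ± 3.80% in FSClow (SD, n = 9) and 66.9 ± 15.2% in FSChi (SD, n = 5), with 87.7% as the lowest in FSClow and 79.3% as the highest in FSChi. Loci D and E took 1.26 ± 2.19% in FSClow and 24.0 ± 11.5% in FSChi. The ranges did not overlap in either case. Tas2r108 alone took 80.9 ± 8.59% of FSClow and 53.8 ± 14.96% of FSChi receptor reads, where the lowest FSClow library at 68.8% was above the highest FSChi library at 64.4%.

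Levels between receptors were compared per kilobase of gene. In FSChi the order was Tas2r108 with 610 ± 406 CPM per kb (SD, n = 5), Tas2r105 with 129 ± 98.2, Tas2r138 with 114 ± 50.5, Tas2r118 with 60.7 ± 54.3, Tas2r129 with 35.8 ± 36.8 and Tas2r126 with 29.2 ± 14.5. In each FSChi library Tas2r108 had more reads than any other receptor, and the ranks of Tas2r105 and Tas2r138 changed places between libraries, with Tas2r105 second in FSChi 1, 2 and 5 and Tas2r138 second in FSChi 3 and 4. From Tas2r105 downwards, neighbours in this order differed by less than the larger of their SDs. In FSClow the order was Tas2r108 with 108 ± 41.9 CPM per kb (SD, n = 9), Tas2r138 with 14.6 ± 6.88, Tas2r126 with 3.20 ± 0.95 and Tas2r137 with 0.99 ± 1.33. By reads, the first 3 of these led in this order in 8 of 9 libraries, and in FSClow 5 Tas2r118 stood between Tas2r138 and Tas2r126.

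EpCAM libraries held 40 receptor reads in all, against 3292 in FSClow and 17765 in FSChi. They fell on 8 receptors, with 12 reads of Tas2r108, 11 of Tas2r143, 7 of Tas2r126, 4 of Tas2r119, 2 each of Tas2r118 and Tas2r137, and 1 each of Tas2r135 and Tas2r107. The 27 other receptors had none, which at 3 reads allows up to 0.452 to 0.713 CPM in a single EpCAM library. Such floors and intervals cover counting error only, since reads without molecular identifiers are not independent molecules.

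The genes through which bitter receptors act differed in their patterns. The list held 13 genes of the G protein, its effectors, the channels and receptor trafficking, of which 12 were in the table, 11 were tested and Rtp3, a receptor transport gene, had no read. In FSChi against FSClow 8 were higher and 0 lower, in FSChi against EpCAM 8 higher and 0 lower, and in FSClow against EpCAM 3 higher and 2 lower. Of the 11, Calhm1 and Rgs21 passed the filter only through FSChi, where they were high, so a difference from FSChi was largely set by the filter for these 2. Over all genes tested, the median log2 change was -0.01, -0.02 and 0.05 in these comparisons, and the shares higher were those given above.

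Gnat3, the alpha subunit of gustducin, stood at 2912, 2600.2, 755, 1134 and 3144 CPM in FSChi 1 to 5, from 98.0 to 258 CPM with a median of 153 in FSClow, and at 2.75, 0, 0, 0 and 5.87 CPM in EpCAM. Its log2 fold change was 3.61 ± 0.58 in FSChi against FSClow (SE; adjusted p = 0.00011, edgeR). Gnb3, a beta subunit of the taste G protein, reached 2653, 2398, 679, 1383 and 3775 CPM in FSChi, but no more than 14.7 CPM in FSClow and 16.3 CPM in EpCAM, a difference between the gates of 8.91 ± 0.73 (SE; adjusted p = 5.2e-08, edgeR). FSClow libraries thus held Tas2r108 and Gnat3 at levels clear of EpCAM, while Gnb3 overlapped with EpCAM and was not called there (edgeR adjusted p = 0.83). FSChi 3 was the lowest FSChi library for Gnat3 and Gnb3 as well as for the summed receptor level.

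The gamma subunit Gng13 was higher in FSChi than in FSClow by 1.61 ± 0.32 on the log2 scale (SE; adjusted p = 0.00061, edgeR), and the beta subunit Gnb1 by 1.17 ± 0.22 (SE; adjusted p = 0.00033, edgeR). Gng13 is also a marker of olfactory neurons and is itself 1 of the 6 summed above. It gave 218 of the 238 CPM of that sum in FSChi 2. In FSChi 1, 3, 4 and 5 it gave 460 of 3736, 139 of 1414, 174 of 3039 and 278 of 1870 CPM. In FSClow it ranged from 43.0 to 161 CPM, where the sums were 64.5 to 272 CPM. Itpr3 was higher in FSChi by 2.79 ± 0.34 (SE; adjusted p = 1.7e-06, edgeR) and lower in FSClow than in EpCAM, with a log2 value of -1.68 ± 0.34 (edgeR adjusted p = 0.00021). Plcb2 and Trpm5 did not differ between the gates by the test: the log2 values were 0.36 ± 0.35 (SE; adjusted p = 0.50, edgeR) and -0.56 ± 0.45 (SE; adjusted p = 0.40, edgeR). Trpm5 stood at 623, 1464, 1539, 777 and 1226 CPM in FSChi 1 to 5 and from 967 to 2398 CPM with a median of 1686 in FSClow, ranges that overlapped. Both genes were higher in FSClow than in EpCAM, by 7.82 ± 0.58 and 10.14 ± 0.75 (SE; adjusted p = 2.3e-10 and 4.0e-10, edgeR).

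Calhm1 and Rgs21 were read almost only in FSChi, whereas Rtp4 overlapped between the gates. Calhm1, a subunit of the channel that releases ATP from taste cells, had 487 reads over FSChi (31.7, 28.9, 2.96, 21.8 and 62.7 CPM), 0 in FSClow and 1 in EpCAM. Rgs21, a regulator of G protein signalling in taste cells, gave 64.9, 163, 18.1, 33.2 and 220.1 CPM in FSChi, at most 2.87 CPM in FSClow and 0 in EpCAM, and differed between the gates by 7.71 ± 0.80 on the log2 scale (SE; adjusted p = 2.6e-06, edgeR). Both were clear of FSClow in all 5 FSChi libraries. Rtp4, a receptor transport gene, was higher in FSChi than in FSClow by 1.49 ± 0.54 (SE; adjusted p = 0.045, edgeR), with 27.5 CPM in FSChi 1 and 4.43 to 7.23 CPM in the other 4, against 0.605 to 10.6 CPM in FSClow.

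**Figure D5:**
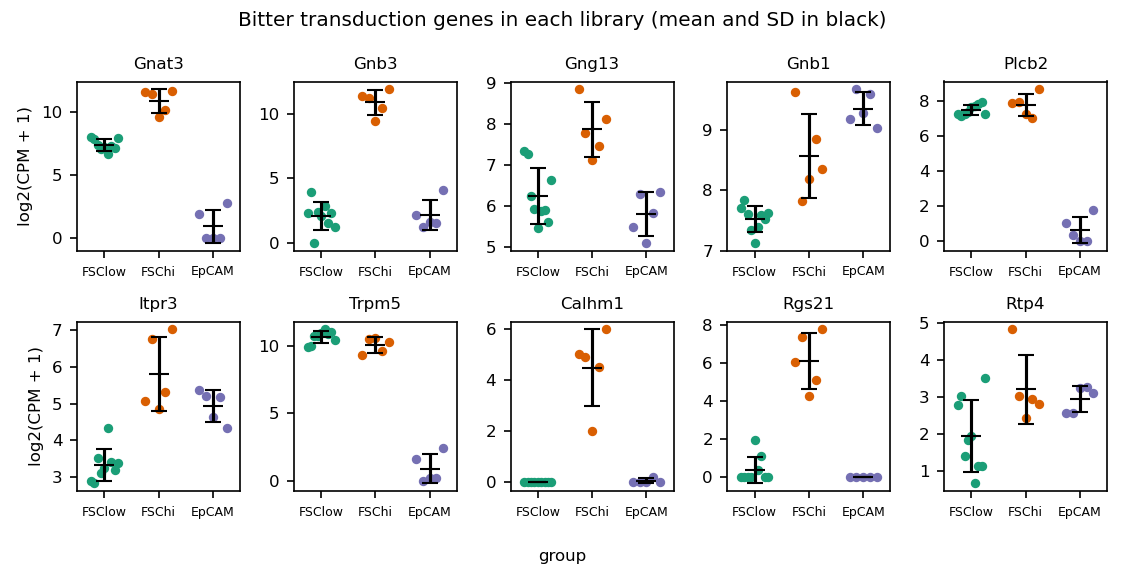
Level of 10 genes of bitter taste transduction in each library as log2(CPM + 1), by group, with the mean and SD in black; each panel has its own vertical scale, which does not start at 0 in all panels. Gnb3, Calhm1 and Rgs21 are high in FSChi only, Gnat3 is intermediate in FSClow, and Plcb2 and Trpm5 overlap between FSClow and FSChi.

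Genes around the receptors were read to see what else lay at these places. At locus B, Tas2r137 is flanked by Ssbp1, which encodes a mitochondrial single-strand DNA binding protein, and Prss37. Ssbp1 was higher in FSClow than in EpCAM by 2.58 ± 0.22 on the log2 scale (SE; adjusted p = 1.3e-09, edgeR), and Prss37 had 134 reads in FSClow against 1 (edgeR adjusted p = 1.3e-06). Neither passed the test between the gates (edgeR adjusted p = 0.15 and 0.14). Around Tas2r138, Clec5a had 18, 17 and 0 reads and Mgam 14, 12 and 11 reads over FSClow, FSChi and EpCAM, and neither was tested. The olfactory receptor gene Olfr461, which lies between Tas2r108 and Tas2r138 and was chosen after its values were seen, had 32.7 to 98.8 CPM in FSChi, 12.1 to 46.1 CPM in FSClow and reads in EpCAM 1 alone. At locus C, Epha1 did not pass any of the 3 tests (edgeR adjusted p = 0.82, 0.78 and 0.49), although Tas2r126 did. Gstk1, next to Tas2r144, was higher in FSChi than in FSClow by 1.53 ± 0.53 on the log2 scale (SE; adjusted p = 0.037, edgeR). It was lower in FSClow than in EpCAM, with a log2 value of -1.51 ± 0.52 (SE; adjusted p = 0.022, edgeR), and FSChi did not differ from EpCAM by the test (edgeR adjusted p = 0.99). At locus E, Smim10l1 was higher in FSChi than in FSClow by 1.003 ± 0.18 (SE; adjusted p = 0.00015, edgeR), and A630073D07Rik had 71 reads in FSChi, 2 in FSClow and 0 in EpCAM.

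Receptor sequences are close enough in places for reads to be shared. Over the 595 pairs, coding identity ran from 44.7 to 86.2% with a median of 51.7%. Only Tas2r110 and Tas2r123 (86.2%) and Tas2r109 and Tas2r117 (77.1%) exceeded 75%. The longest run shared by the first pair, 120 nt from position 596 of either coding sequence, and by the second, 77 nt, are printed because a read inside them names no single gene (GENCODE M21, GRCm38).
Tas2r110 and Tas2r123: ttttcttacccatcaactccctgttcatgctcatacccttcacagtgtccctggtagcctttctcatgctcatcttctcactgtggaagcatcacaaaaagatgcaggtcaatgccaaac
Tas2r109 and Tas2r117: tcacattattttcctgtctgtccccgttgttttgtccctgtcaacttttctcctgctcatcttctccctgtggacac
The other pair with a run over 50 nt, Tas2r117 and Tas2r123 (51 nt), joins members of these pairs. The values of these 4 genes are uncertain to that extent. Tas2r123 nevertheless had 3, 4 and 1 reads in FSChi 2, 3 and 4 where Tas2r110 had none, and Tas2r117 had 8, 10 and 14 where Tas2r109 had none. Tas2r105 and Tas2r104, adjacent at locus D, were 74.0% identical with a longest shared run of 29 nt.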

How the data were processed

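RNA sequencing of 19 libraries of sorted nasal epithelial cells was analysed. The submitters' processing notes name RSEM 1.2.21, featureCounts, DESeq2, Picard 1.1073 and STAR 2.4.2a, and the build mm10, and give no roles. Raw counts were deposited by the authors for 27179 Entrez identifiers. The authors' normalized table is a signal, counts divided by a size factor per library: multiplied back, 100% of its values were whole reads within 0.01. For 47729 genes, each library also has its own deposited file of RSEM expected counts (rounded before use) and of TPM, per the file headers. Strand use in counting is not given in the sources used here.

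The counts were analysed with edgeR 4.0.16 in R 4.3.3: filterByExpr by group, TMM scaling, and a robust quasi-likelihood fit of all 19 libraries with group as the only term, with Benjamini-Hochberg adjustment over all 13340 genes tested and calls at an adjusted p under 0.05. Levels are CPM with TMM factors; SE come from the F statistic. A fold against a group without reads uses a floor of 3 reads over the group; ratios carry 95% exact counting intervals. Receptors with 20 or more reads, or passing the filter, were described one by one, and the others by their read totals; of the transduction list, genes called between the gates and Gnat3, Gng13, Plcb2, Itpr3 and Trpm5 were named. Members and lists were chosen with earlier results of these data known. Alternatives used other scalings and filters, DESeq2 1.42.0, the 2 groups alone, a replicate block, each library left out, RSEM counts, and limma 3.58.1 on log2 TPM and normalized values. The fit was tested on simulated data.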

Additional observations from a re-analysis of the deposited data

Results flagged for a closer look

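The single-library files hold 5 Tas2r pseudogenes that were not in the normalized table. Over the FSChi files, Tas2r142-ps5 had 58 rounded expected counts, 48 of them in the file of FSChi 1, Tas2r145-ps3 had 28 and Tas2r146-ps1 had 13. All 3 had 0 in the EpCAM files, and FSClow held 1, of Tas2r146-ps1. They were picked out because signal was present outside the table used for the comparisons. The other 2 pseudogenes had 0 in every file. No library stood far from the rest of its group by Dixon's test among the 19 values looked at, where chance would pick about 1 in 20. Genes with a median of 0 in a group were not looked at. The reads of Tas2r118 in FSClow 5, of Tas2r129 in FSClow 6 and of Tas2r108 in EpCAM 1 were thus outside this test.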

How the results depend on the processing

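The receptors called lower numbered 0 in all 3 comparisons under every alternative that was run, and under relative log expression and upper-quartile scaling the receptors called higher were 4, 7 and 7 in number as reported. The count of higher calls in FSChi against EpCAM (7) was 29 with at least 10 reads in total, 28 with no filter, 20 with DESeq2, 23 on the log2(authors' normalized value + 1) scale, 15 on log2(TPM + 0.1), 13 on log2(TPM + 1), 4 with RSEM expected counts and 12 with only the columns closest to their own file. In FSChi against FSClow (7) the same settings gave 31, 30, 20 and 23, RSEM expected counts 4 and the columns closest to their own file 12. The number of receptors tested moved as well. It was 7 in the main fit, 32 with at least 10 reads in total and 35 with no filter, with DESeq2 and on the normalized scale. On the TPM scales it was 33, with RSEM expected counts 4 and with the columns closest to their own file 12. The shares of all genes called under these settings are not given here, apart from those with no filter. No single-library file matched the FSChi 5 column closely, so RSEM and TPM results may lack that library. Without the nearly empty FSChi 3 file, the TPM scales gave 18 and 15 against EpCAM and 18 and 16 against FSClow. With it, the Tas2r108 change between the gates was -0.61 on log2(TPM + 0.1), and without it 1.83. Neither value was a call (limma adjusted p = 0.87 and 0.14). On log2(TPM + 1) without that file the change was 1.82 (limma adjusted p = 0.026). Leaving out 1 library at a time gave 7 to 10 higher calls in either FSChi comparison and 4 in FSClow against EpCAM, where the TPM, normalized and RSEM values, the columns closest to their own file and the 2 groups alone gave 3. Receptors with reads over a group (11 in FSClow, 35 in FSChi, 4 in EpCAM) numbered 20 and 8 in FSClow and EpCAM at 1 read, 5 and 2 at 10 reads, 23 in FSChi without FSChi 1 and 5 together, and 7 to 11, 32 to 35 and 3 to 4 leaving out 1 library. The summed level ranged from 109.2 to 125.2, 794.6 to 1221 and 0.8647 to 1.738 CPM when 1 library was left out; the FSClow sum was 180.2 in TPM, and the FSChi sum (1055) was 521.4 with RSEM expected counts and 771.5 in TPM, both with the nearly empty FSChi 3 file. Replicate numbers are shared by the labels, and the deviations of same-numbered libraries correlated by -0.173 to 0.367. Whether same-numbered libraries share an animal or a sort was not tested. For the 5 columns closest to another file, the number itself is uncertain. With the replicate block 4, 7 and 7 receptors were called, with Tas2r118 in FSClow against EpCAM gained (edgeR adjusted p = 0.036) and Tas2r137 lost. Relative log expression scaling moved the median of all genes in FSClow against EpCAM from 0.05 to -0.14 and the share of calls that were higher from 48.7 to 38.2%. Of 719 fold changes of the 7 tested receptors under alternatives, 702 kept their call, 15 lost it, 1 gained it and 1 reversed, the Tas2r108 value of -0.61 given above. At the depth of FSChi 2, the shallowest library, 3 reads are worth 2.41 CPM, and lower levels were not detectable there.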
